A study of Mus musculus with 4 samples.

Results

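Natural killer (NK) cells, gated with few or no UMIs of the CD3 genes of T cell receptor signalling, were picked out of single-cell libraries of CD45+ immune cells from mouse skin and skin tumors. A cell was taken as an NK cell when it had at least 2 unique molecular identifiers (UMIs, counted cDNA molecules) of Ncr1, Klrb1c and Eomes together and at most 1 of Cd3e, Cd3g and Cd3d together. It also had at most 5 UMIs of Trdc, 1 of Csf1r, 5 of Cd207 and 2 of Top2a and Mki67, which left out γδ T cells, macrophages, Langerhans cells and dividing cells. The gate held 213 of the 13124 cells with at least 1000 UMIs and at most 15% mitochondrial UMIs, that is 1.62%. Of these, 65 came from control skins and 148 from skin tumors. No UMI of CD3 genes, Trdc, Trac and Tcrg-C1 at all was found in 23 of 37, 17 of 28, 57 of 91 and 47 of 57 of them in the 4 libraries.

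The control skins came from 2 uninoculated C57BL/6 mice, and the skin tumors from 2 C57BL/6 mice with a subcutaneous graft of the 2323 cell line, collected after 2 weeks. The line was derived from a skin tumor of a mouse model that carries K14rtTA, tetOCre and P53-/- among its alleles. The alleles of the model were in the injected cells, and all hosts had the C57/BL6 genotype, were of either sex and, where injected, were 8 to 10 weeks old. All tumors came from 1 cell line, and each library is 1 skin or 1 tumor. All samples were digested with collagenase at 37 °C, sorted as live CD45+ cells and loaded for 3′ droplet sequencing. The libraries are called control 1, control 2, tumor 1 and tumor 2.

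NK cells are innate lymphocytes that kill target cells with granzymes and perforin without an antigen receptor. They carry the Ly49 receptors (Klra genes), some inhibitory and some activating, that bind MHC class I or viral ligands. Relatives that stay in the tissue, the type 1 innate lymphoid cells (ILC1), share Ncr1 and Klrb1c with NK cells, often lack Eomes and carry the integrin CD49a (Itga1) in place of CD49b (Itga2), so that a gate such as this one can hold both.

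The libraries held 50932896, 52784293, 73904272 and 34893543 UMIs in control 1, control 2, tumor 1 and tumor 2. After the filters on UMIs and mitochondrial share, 3114, 3190, 4813 and 2007 cells remained, and 37, 28, 91 and 57 of them were in the NK gate. The NK cells summed to 475994, 384036, 823273 and 513160 UMIs. NK cells of control skins were read more deeply per cell, with medians of 12868 and 13909 UMIs against 8598 and 7686 in tumors. Shares of cells with a UMI are therefore given after thinning each NK cell to 5000 UMIs, which left out 38 shallower cells (2, 0, 21 and 15 per library) and kept 35, 28, 70 and 42. Where none of these cells had a UMI of a gene, a floor of 3 cells allows a share of cells with a UMI of up to 8.57, 10.7, 4.29 and 7.14%, which limits detection and not expression. Between 1 and 7 cell barcodes were shared by each pair of libraries, 23 in all.

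The label was checked on genes that the gate did not use. Nkg7, a granule protein of cytotoxic lymphocytes, was found in 77.1, 85.7, 94.3 and 85.7% of thinned NK cells of control 1, control 2, tumor 1 and tumor 2. In macrophages, which should lack Nkg7, the shares were 0.714, 1.09, 0.509 and 0.36% at median depths of 20599 to 22847 UMIs before thinning. Klrk1, the gene of the activating receptor NKG2D, was found in 77.1, 85.7, 88.6 and 81.0% of NK cells and in 6.43, 4.73, 16.5 and 10.3% of macrophages. α/β T cells by gate carried both genes, Nkg7 in 61.9, 56.8, 54.5 and 41.1% and Klrk1 in 40.4, 38.4, 31.0 and 23.8%. Gzma, a granzyme, was found in 37.1 and 35.7% of NK cells of control skins and in 75.7 and 73.8% of those of tumors, against at most 0.18% of macrophages.

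Markers of other cells were present at low levels and not evenly. The 5 B and plasma cell markers were at 0 in NK cells of all libraries. The 9 α/β T cell markers summed to 761, 745, 666 and 474 UMIs in each 1000000 UMIs of NK cells (plain CPM, counts without further scaling), most of it Trbc1, whose transcript NK cells also carry. The 8 markers of type 2 innate lymphoid cells (ILC2) summed to 645, 357, 198 and 193 plain CPM, led by Gata3, with Il5 and Il17rb at 0 everywhere. The 9 markers of γδ T cells and dendritic epidermal T cells (DETC) summed to 105, 62.5, 27.9 and 31.2 plain CPM, led by Trdv4, with Tcrg-V5, Trdv1 and Tcrg-V6 at 0. Both lists were higher in control skins. The 11 dendritic and Langerhans cell markers, led by Cd74, summed to 391, 388, 576 and 528 plain CPM, with Clec9a at 0, and the 6 mast cell markers, led by Kit, to 130.3, 138, 113 and 74.1 plain CPM, with Ms4a2 at 0. The 5 erythrocyte and platelet markers stayed at 6.07 plain CPM or below. Their part in the differences between groups was not tested.

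Single cells decided some of these sums. The 5 neutrophil markers, led by S100a9, summed to 1185 plain CPM in control 2 and to at most 15.6 in the other libraries. One cell of control 2 held all 319 S100a9 and all 125 S100a8 UMIs, 182 of 204 Cxcl2 UMIs and no Eomes UMI, among 5875 UMIs in all. The 12 macrophage and monocyte markers summed to 37.8, 271, 215 and 1029 plain CPM, and 1 cell of tumor 2 held 252 of its 294 UMIs of Lyz2, a monocyte and macrophage lysozyme. Col3a1, a fibroblast collagen, led the 7 keratinocyte and fibroblast markers (0, 57.3, 1.21 and 236 plain CPM), and all of its 105 UMIs in tumor 2 were in 1 cell. Leaving out cells with 5 or more myeloid marker UMIs changed the number of genes that differed in NK cells from 34 to 47, of which 27 were among the 33 of the 34 still tested. Median mitochondrial shares of NK cells overlapped between groups, at 2.24, 1.87, 1.98 and 1.35%. Xist, the transcript of the inactive X chromosome, had no UMI in NK cells of any library, and the Y-linked gene Ddx3y was at 173, 145, 145 and 207 TMM-scaled CPM, so the libraries did not differ in sex by these genes.

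The edges of the gate are given as a description. Just inside, at 2 UMIs of the 3 NK genes, lay 7, 2, 13 and 10 cells, and just outside, at 1 UMI, lay 11, 8, 39 and 12. Klrk1 was found in 84.6% and Nkg7 in 53.8% of the 13 cells just inside in tumor 1, against 51.3% and 25.6% of the 39 just outside. In tumor 2 the shares were 100 and 50% inside against 50 and 41.7% outside. In the control skins they were lower inside, with 85.7 and 57.1% against 100 and 63.6% in control 1 and 50 and 50% against 62.5 and 62.5% in control 2. With 2 CD3 UMIs instead of at most 1, a further 4, 1, 4 and 2 cells would have entered, and Trac, the constant chain of the α/β receptor, was found in 50, 0, 75 and 50% of them.

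The share of NK cells among immune cells was 1.19% (95% Clopper-Pearson interval 0.838 to 1.63) in control 1 and 0.878% (0.584 to 1.27) in control 2. It was 1.89% (1.52 to 2.32) in tumor 1 and 2.84% (2.16 to 3.66) in tumor 2. Both tumors lay above both control skins, at 2.37% ± 0.671 against 1.03% ± 0.22 (SD, n = 2), a ratio of 2.29. The exact two-sided permutation test gave p = 0.333, which is the smallest p that 2 libraries against 2 can give. The intervals cover counting error only.

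The size of this difference depended on what the share was taken of. Among lymphocytes by gate (cells with at least 2 CD3 UMIs, NK cells and ILC2) NK cells made up 2.02 and 1.69% in control skins and 9.31 and 9.86% in tumors, a ratio of 5.17. The ILC2 of this total were gated without leaving out mast cells, whose markers were far higher among them in tumors. DETC, the γδ T cells of mouse epidermis, numbered 942 and 1064 in control skins and 9 and 31 in tumors. With DETC taken out of all cells, NK cells made up 1.70 and 1.32% of control skins and 1.89 and 2.88% of tumors, a ratio of 1.58. In each of these the exact p was 0.333. Macrophages by gate numbered 141 and 279 in control skins and 1584 and 560 in tumors, so the total that NK cells were set against differed between groups as well.

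**Figure D1:**
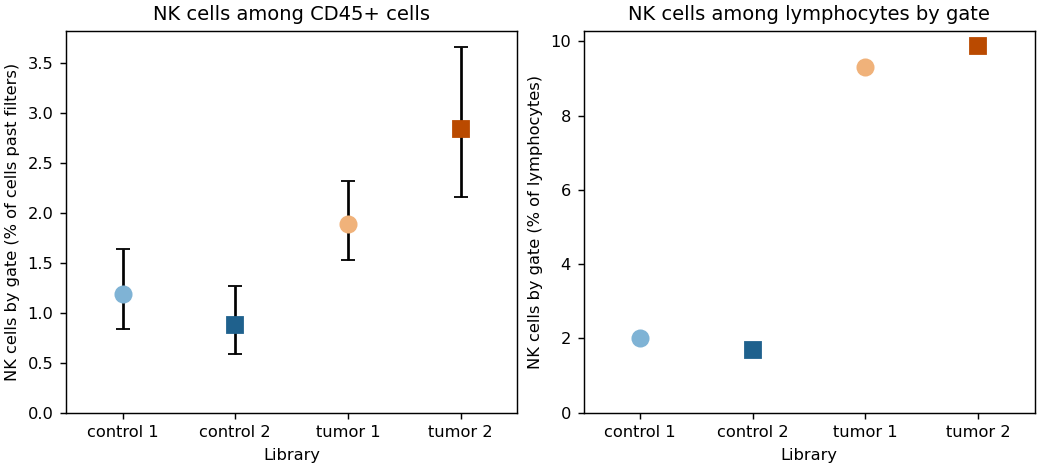
Share of NK cells by gate in each library. Left, percent of all cells past the filters, with 95% Clopper-Pearson intervals as bars; right, percent of lymphocytes by gate, without intervals. Both tumors lie above both control skins in each panel, by a ratio of means of 2.29 on the left and 5.17 on the right.

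Which genes differed in NK cells between skin tumors and control skins was asked on UMIs summed over the NK cells of each library, with the library as the replicate. In quasi-likelihood tests of edgeR, with p-values adjusted after Benjamini and Hochberg over 5900 genes, 14 genes were higher in tumors (0.237% of those tested) and 20 were lower (0.339%) at an adjusted p under 0.05. Genes higher in tumor NK cells included the interferon-induced Ifit1, Oasl1 and Ifih1, the chemokine Cxcl10, and the Ly49 receptors Klra4 and Klra8. Genes lower in tumor NK cells included the tissue residency genes Itgae, Gpr183 and Tnfsf10, the growth factor Areg and the calcium-binding protein S100a4. Unadjusted, 833 genes were at p under 0.05, with 7.44% of those tested higher and 6.68% lower. DESeq2 called 0.475% higher and 0.78% lower. Levels below are CPM with TMM scaling of the summed NK cells, given in the order control 1, control 2, tumor 1 and tumor 2.

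Many of these calls were lost when 1 library was left out, although without control 1 all 34 genes kept their direction. Without control 1, 7 genes passed, and Itgae was the only one of the 34 among them; the others were Dcc, Enpp2, Lingo2, S100a8, S100a9 and Wif1. Without tumor 2, 11 genes passed, of which 6 were among the 34, namely Cxcl10, Ifit1, Itgae, Pik3r6, Plac8 and Spp1. Without control 2, 159 genes passed, including all 34, and without tumor 1, 47 passed, including 19 of them. In these tests the remaining library of a group was assumed to vary like the other group. Fewer cells of a kind within the gate and less RNA per cell cannot be told apart in such sums. After thinning each NK cell to 5000 UMIs, 24 genes passed, 19 of them among the 34. Klra8, Tnfsf10, Ifih1, Pik3r6 and Rora were among those that did not pass after thinning.

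**Figure D2:**
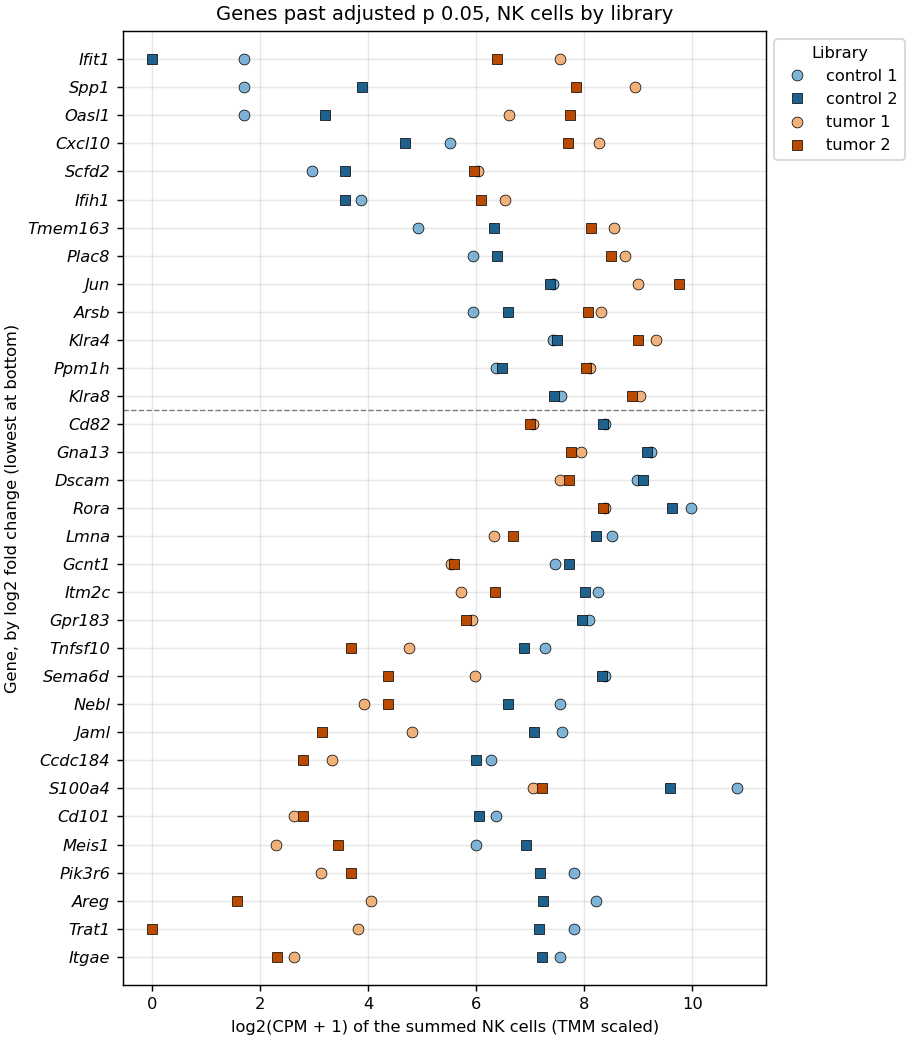
Levels of 33 of the 34 genes with an adjusted p under 0.05 in NK cells, as log2(CPM + 1) of the summed cells of each library. Each point is 1 library, circles and squares are replicates 1 and 2, and the dashed line parts the 20 genes lower in tumors (below) from 13 of the 14 higher ones (above). For each gene the points of the tumors do not overlap those of the control skins.

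Genes of tissue residency were lower in NK cells of tumors. Of 14 tested genes of the ILC1 and tissue residency list, 3 fell and none rose by edgeR (5 and none by DESeq2, 11 and none at an unadjusted p under 0.05 by edgeR), and in 11 both tumors lay below both control skins (21.5% of all tested genes did so). The list's median log2 fold change was -1.32, against 0.01 over all genes. Itgae (chr11:73090583-73147446, GRCm38) codes for αE integrin (CD103), which holds lymphocytes to E-cadherin on epithelium. Its level was 187, 148, 5.18 and 3.93 CPM. Every control NK sum was far above every tumor NK sum, and the log2 fold change was -5.10 ± 0.38 (SE, adjusted p = 0.0108, edgeR). In control skins 83 and 54 Itgae UMIs were spread over 13 and 12 cells, and in each tumor a single NK cell held all of them.

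The oxysterol receptor gene Gpr183 (chr14:121952551-121965195), which guides the position of lymphocytes in tissue, was at 270, 249, 59.5 and 55.1 CPM. Replicates lay close together, and Gpr183 fell 4.50-fold (log2 fold change -2.17 ± 0.22, adjusted p = 0.0257, edgeR). Tnfsf10 (chr3:27317028-27342427) codes for the death ligand TRAIL, typical of ILC1 and of immature NK cells. It was at 153, 118, 25.9 and 11.8 CPM and fell 6.81-fold (adjusted p = 0.0404). Rgs1, a brake on chemokine receptor signalling, was at 1483, 1158, 463 and 637 CPM with an adjusted p of 0.089, and Ikzf2, the transcription factor Helios, at 1285, 794, 592 and 220.3 CPM with an adjusted p of 0.253. Cd69, an early activation and residency marker, was at 229.6, 145, 163 and 248 CPM, where the groups overlapped.

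Several genes outside that list were lower as well. Trat1, an adaptor that associates with the T cell receptor, was at 225, 142, 12.9 and 0 CPM (log2 fold change -4.56 ± 0.66, adjusted p = 0.0411). Its UMIs came from 13 and 8 control NK cells and from 6 cells of tumor 1. Pik3r6, a regulatory subunit of PI3-kinase γ, was at 225, 145, 7.77 and 11.8 CPM and fell 19.2-fold (adjusted p = 0.0238). Areg, the EGF receptor ligand amphiregulin, was at 297, 151, 15.5 and 1.97 CPM (log2 fold change -4.48 ± 0.59, adjusted p = 0.0372). In control 2, 38 of the 55 Areg UMIs were in 1 cell. Areg is also an ILC2 marker of the lists above, whose sum was higher in NK cells of control skins. S100a4 was at 1823, 772, 132 and 148 CPM and fell 9.31-fold (adjusted p = 0.0372), the only member of the circulating and mature NK list that fell by edgeR (DESeq2 called 2 lower, the other being Emb). Meis1, a homeobox factor, Cd101, Ccdc184, Jaml, a junctional adhesion protein, and Nebl also fell, by log2 fold changes of -3.79, -3.69, -3.14, -3.10 and -3.08. Meis1 was found in 4, 3, 2 and 3 cells, with 14 of 28 UMIs of control 1 and 37 of 44 of control 2 in 1 cell each. Outside the rule by which genes were named, and so named after their values were seen, Sema6d, Itm2c, Gcnt1, Lmna, Dscam, Gna13 and Cd82 completed the genes that fell along with Rora, and Arsb and Ppm1h those that rose.

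For several of these genes, levels in other cells of the same libraries were lower in tumors too. Itgae was found in 25.7 and 35.7% of thinned NK cells of control skins and in 1.43 and 2.38% of those of tumors. In macrophages of the same libraries, which should lack it, the shares were 12.9 and 10.5% against 1.02 and 1.08%. The NK share was thus above the macrophage share in control skins and close to it in tumors. Areg was in 25.7, 17.9, 2.86 and 2.38% of NK cells and in 4.29, 3.64, 1.72 and 7.19% of macrophages, so the macrophage shares of the groups overlapped. Trat1 was in 28.6 and 25% of control NK cells against 3.57 and 4% of control macrophages. S100a4 was found in 74.3, 60.7, 12.9 and 23.8% of NK cells and in 92.9, 82.2, 27.1 and 56.8% of macrophages. Gpr183 was in 51.4, 35.7, 11.4 and 9.52% of NK cells and in 69.3, 50.2, 19.4 and 20.7% of macrophages. Both genes are known from macrophages too, and their macrophage share was above the NK share in all libraries. How much of the NK level of these genes is free RNA was not tested. In other cells gated as lymphocytes, Itgae was at 263, 233, 30.9 and 105 plain CPM in DETC and at 503, 404, 134 and 98.1 in ILC2. The ILC2 gate did not leave out mast cells, whose markers summed to 363, 2354, 28452 and 28331 plain CPM in it. ILC2 markers summed to 5060, 3687, 2074 and 2270 there, so levels given for ILC2 of tumors are not those of ILC2 alone. Trat1 was at 719, 635, 56.7 and 363 plain CPM in DETC and at 177, 87.6, 247 and 145 in ILC2. Areg was at 847, 771, 72.2 and 192 plain CPM in DETC and at 151, 153, 272 and 266 in α/β T cells, so it was lower in tumors in the former and higher in the latter. Pik3r6 was at 360.2, 344, 93.6 and 88.9 plain CPM in macrophages. In control skins Tnfsf10 was far above the macrophage share and in tumors close to or below it, in 37.1, 50, 7.14 and 0% of NK cells and in 0.714, 1.09, 4.07 and 0.899% of macrophages.

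The Ly49 receptors moved the other way. Of 6 tested members of 11 listed, 2 rose and none fell by edgeR and by DESeq2 (4 and none at an unadjusted p under 0.05 by edgeR). All 6 had a positive log2 fold change, as did 3033 of all 5900 tested genes. In 5 both tumors lay above both control skins (23.1% of all tested genes did so). The median log2 fold change of the 6 was 1.19. Klra4 (chr6:130043731-130067271) codes for Ly49D, an activating receptor. It was at 171, 181, 645 and 508 CPM and rose 3.28-fold (log2 fold change 1.71 ± 0.23, adjusted p = 0.0372, edgeR). Klra8 (chr6:130115226-130129898) codes for Ly49H, the activating receptor for a cytomegalovirus protein. It was at 189, 172, 523 and 470 CPM and rose 2.74-fold (log2 fold change 1.46 ± 0.21, adjusted p = 0.041). Klra8 did not pass after thinning or without cells with 5 or more myeloid UMIs, whereas Klra4 did. With a gate of at least 3 NK UMIs and no CD3 UMI, Klra4 passed and Klra8 did not. The inhibitory receptor genes Klra7 (Ly49G; 135, 222, 343 and 392 CPM), Klra1 (Ly49A; 27, 38.3, 85.4 and 78.7 CPM), Klra3 (Ly49C; 60.8, 43.8, 66.0 and 140 CPM) and Klra9 (Ly49I; 158, 79.4, 179 and 144 CPM) had adjusted p-values of 0.149, 0.141, 0.38 and 0.64.

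Klra4 was hardly found in macrophages and Klra8 hardly in T cells, whereas some other Ly49 genes were found in such cells. Both comparison gates took only cells without UMIs of Ncr1, Klrb1c and Eomes, so other cells outside the NK gate are not covered. Klra4 was in 14.3, 21.4, 52.9 and 52.4% of thinned NK cells and in at most 0.0637% of macrophages. Klra8 was in 28.6, 17.9, 58.6 and 52.4% of NK cells and in at most 1.60% of T cells. Klra2, by contrast, was in 53.9 and 37.2% of tumor macrophages and in 2.86 and 2.38% of tumor NK cells, and Klra1 in 7.69 and 7.2% of control T cells and in 5.71 and 7.14% of control NK cells. Per thinned NK cell, a mean of 1.20 ± 1.64 and 1.14 ± 1.21 (SD over cells) Ly49 genes were found in control skins, against 2.33 ± 1.30 and 2.43 ± 1.5 in tumors. No Ly49 gene was found in 51.4 and 39.3% of control NK cells and in 12.9 and 16.7% of tumor NK cells. The last 300 bases of Klra3 and Klra9 are 98.7% identical, so 3′ reads of these genes may be split between them, whereas those of Klra4 and Klra8 are 60.7% identical. Klra4 and Klra1 share 85.3% of these bases, and Klra8 and Klra3 83.0%.

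Other receptors of NK cells gave no call by edgeR. Of 22 tested genes of that list, none passed edgeR's test, and in 4 both tumors were higher and in 8 lower than both control skins (18.2 and 36.4%, against 23.1 and 21.5% of all tested genes). At an unadjusted p under 0.05 there were 1 higher and 3 lower by edgeR, and DESeq2 called 1 lower. Klrk1 was at 524, 438, 529 and 452 CPM, and Klre1, a receptor with activating and inhibitory partners, at 232, 268, 462 and 362 CPM (adjusted p = 0.219). Klrc1, the inhibitory receptor NKG2A, was at 518, 501, 173 and 226 CPM, and both tumors were below both control skins with an adjusted p of 0.0548. The signalling adaptors Tyrobp and Fcer1g differed by log2 fold changes of -0.11 and 0.04.

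Cytotoxic genes went both ways. Of 20 tested, both tumors lay above both control skins in 6 and below them in 6 (23.1 and 21.5% of all tested genes), and Gzma and Gzmb were higher but passed in some fits only. Gzma was at 1199.6, 537, 2917 and 3439 CPM, 3178 ± 369 in tumors against 868 ± 469 in control skins (SD, n = 2; log2 fold change 1.87 ± 0.37, adjusted p = 0.089 by edgeR and 0.000143 by DESeq2). Gzmb, the granzyme that activates caspases, was at 290.3, 90.3, 1038 and 1151 CPM (log2 fold change 2.50 ± 0.46, adjusted p = 0.0736). Gzmb passed edgeR's test after thinning (adjusted p = 0.0446) and without cells with 5 or more myeloid UMIs (adjusted p = 0.0174). It was found in 37.1, 14.3, 74.3 and 73.8% of thinned NK cells and in at most 1.98% of macrophages. Gzmc, a granzyme of activated killer cells and of ILC1, was lower in both tumors, with 4026, 1328, 801 and 159 CPM (adjusted p = 0.218). It passed in the same fits, after thinning (adjusted p = 0.039) and without cells with myeloid UMIs (adjusted p = 0.00669). It also passed with the replicate block (adjusted p = 0.0134). Its log2 fold change was -2.46 over all NK cells but turned to 1.54 with an Eomes UMI required (adjusted p = 0.615, edgeR). Without control 1, control 2, tumor 1 or tumor 2, the log2 fold change of Gzmc was -1.46, -3.09, -4.09 and -1.75. Of its UMIs, 346 of 485 in control 2, 409 of 619 in tumor 1 and 49 of 81 in tumor 2 were in 1 cell each. Perforin (Prf1) was at 396, 364, 465 and 685 CPM (adjusted p = 0.342) and Nkg7 at 761, 632, 1020.1 and 1023 CPM. Over the list of 20 tested granule genes and death ligands, 1 fell (Tnfsf10) and none rose by edgeR, where 5 were higher and 5 lower at an unadjusted p under 0.05, and DESeq2 called 1 higher and 2 lower. The median log2 fold change was 0.16.

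The genes that the study names for NK cells were chosen on these samples, so they are not independent evidence of their direction. Of 17 tested outside the gate genes, 2 rose (Klra4, Klra8) and 1 fell (Tnfsf10) by edgeR, and DESeq2 called 3 higher and 2 lower, adding Gzma and Il7r. In 11 both tumors were above and in 4 below both control skins (64.7 and 23.5%, against 23.1 and 21.5% of all tested genes). Itga2 (CD49b) was at 58.5, 57.5, 144 and 205 CPM (adjusted p = 0.0726), and Itga1 (CD49a) at 110, 73.9, 14.2 and 27.5 CPM (adjusted p = 0.0844, and 0.0293 without cells with myeloid UMIs). Il7r, the interleukin-7 receptor of resting and innate lymphoid cells, was at 198, 79.4, 16.8 and 9.84 CPM (adjusted p = 0.0536, and 0.0306 after thinning), and the chemokine receptor gene Cxcr6 at 288, 52.0, 41.4 and 13.8 CPM (adjusted p = 0.213). For all of these both tumors lay on 1 side of both control skins. With the replicate block, Il7r and Cxcr6 passed. Inpp4b, a phosphoinositide phosphatase, overlapped between groups (268, 115, 159 and 68.9 CPM), as did the receptor gene Klri2 (200, 233, 210 and 228 CPM).

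Itga1 and Itga2 were counted cell by cell. At full depth both were found in 5, 1, 4 and 5 cells, of 19, 12, 7 and 7 cells with Itga1. After thinning, Itga1 was found without Itga2 in 11 of 35 and 9 of 28 control NK cells and in 2 of 70 and 2 of 42 tumor NK cells. Itga2 was found without Itga1 in 5 and 4 control cells and in 24 and 13 tumor cells, and both in 3, 0, 2 and 1 cells. The study's activation genes were taken without the gate gene Eomes, as Gzma, Gzmb, Itga2 and Klra8, and its inactivation genes as Itga1, Inpp4b, Tnfsf10, Il7r and Cxcr6. Cells with a UMI of this activation set and none of the inactivation set made up 20 and 25% of control NK cells and 65.7 and 61.9% of tumor NK cells. The reverse held for 48.6 and 53.6% of control and 7.14 and 7.14% of tumor NK cells. UMIs of both sets were in 31.4, 17.9, 25.7 and 28.6%, so in each library cells with both were present.

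Interferon-induced genes were at higher levels in tumor NK cells, but among those of the list only Ifit1 passed edgeR's test. Of 38 tested genes of the list, 1 rose (Ifit1) and none fell, and 36 had a positive log2 fold change, as did 3033 of all 5900 tested genes. In 28 both tumors lay above both control skins (23.1% of all tested genes did so). The median log2 fold change was 1.01, also with Mx1 and Ifi44 at their lower bounds. By edgeR 23 genes were higher at an unadjusted p under 0.05 (7.44% of all tested genes), and DESeq2 called 4 higher (0.475% of all tested genes). Ifit1 (chr19:34640871-34650009), which binds foreign RNA cap structures, had 1 UMI in all control NK cells and 186 in tumor NK cells, a ratio of plain CPM of 120 with a counting interval of 21.2 to 4753 (adjusted p = 0.0372). Its levels were 2.25, 0, 186 and 82.6 CPM. The 144 UMIs of tumor 1 lay in 16 cells, whereas 33 of the 42 UMIs of tumor 2 lay in 1 cell. Ifit1 was in 17.1 and 7.14% of thinned tumor NK cells and in 14 and 11.3% of macrophages of the same tumors.

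Oasl1, Ifih1 and Cxcl10 are outside that list and were also higher. Oasl1 (chr5:114923240-114937915), an oligoadenylate synthetase relative, was at 2.25, 8.21, 97.1 and 212 CPM (log2 fold change 4.88 ± 0.66, adjusted p = 0.0378), with 50 of 108 UMIs of tumor 2 in 1 cell. Oasl1 was found in 28.6 and 28.6% of thinned tumor NK cells and in 58.9 and 60.6% of tumor macrophages. Ifih1 (chr2:62595798-62646255) codes for MDA5, a sensor of double-stranded RNA, and was at 13.5, 10.9, 91.9 and 66.9 CPM (log2 fold change 2.68 ± 0.40, adjusted p = 0.043). Cxcl10 (chr5:92346638-92348889) codes for a ligand of the receptor CXCR3 on T and NK cells and was at 45.0, 24.6, 308 and 207 CPM (log2 fold change 2.86 ± 0.35, adjusted p = 0.0372). In tumor 2, 56 of 105 Cxcl10 UMIs were in 1 cell, and in tumor 1, 28 of 71 Ifih1 UMIs. Cxcl10 was in 24.3 and 28.6% of thinned tumor NK cells and in 34.1 and 25.4% of tumor macrophages, and Ifih1 in 17.1 and 16.7% against 36.8 and 33.8%. Whether free RNA from macrophages adds to the NK levels of Ifit1, Oasl1, Cxcl10 and Ifih1 was not tested.

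Other members of the list had few or no UMIs in control skins. Mx1 and Ifi44 had 0 UMIs there and 75 and 47 in tumors (adjusted p = 0.0844 for both). Against a floor of 3 counts over the control group, this is at least 16.1-fold and 10.1-fold higher. Mx1 passed with the replicate block. Ifi206, Ifi213 and Ifi209, which the study names, were at 6.75, 5.47, 62.1 and 31.5 CPM, at 6.75, 16.4, 76.4 and 27.5 CPM and at 49.5, 30.1, 98.4 and 57.1 CPM. Their adjusted p-values were 0.089, 0.209 and 0.342. Abundant members moved less: the transcription factor Irf8 was at 653, 534, 1188 and 1066 CPM, and B2m, the light chain of MHC class I, at 2836, 3033, 3006 and 2522 CPM. Ly6e was lower in both tumors (756, 537, 499.7 and 378 CPM, adjusted p = 0.39). Per thinned NK cell, the median number of UMIs of the list without B2m was 12, 12, 22 and 19, with maxima of 24, 52, 87 and 135.

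**Figure D3:**
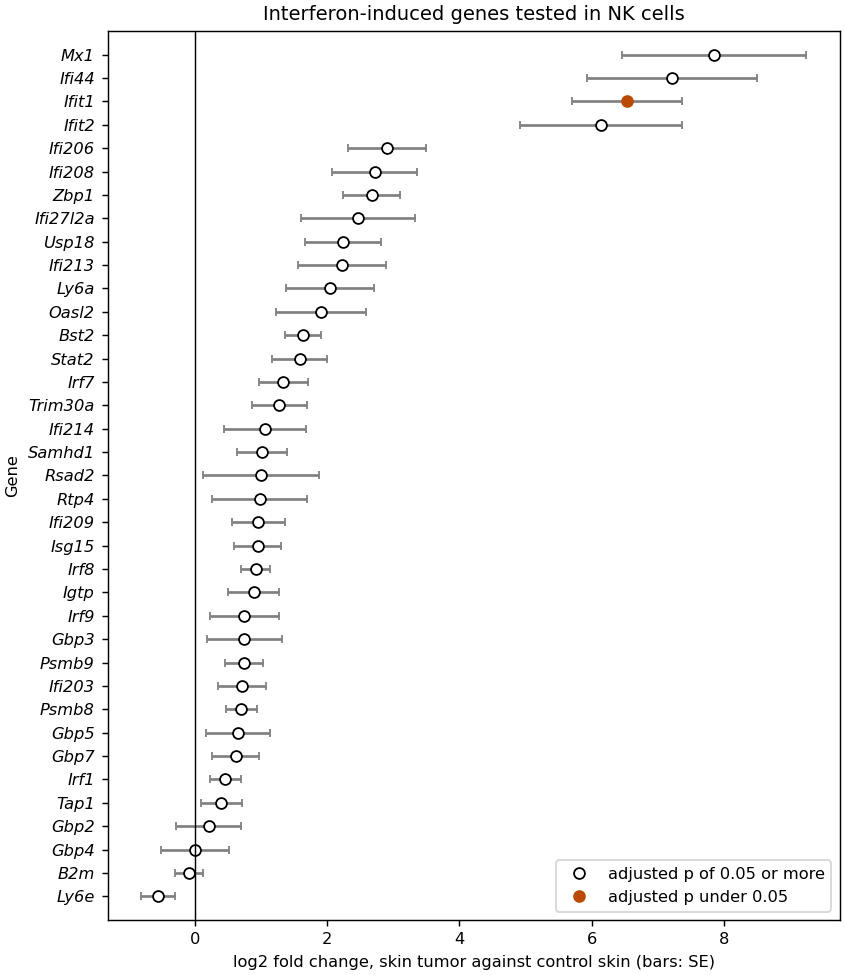
Log2 fold change (skin tumor against control skin) of 37 of the 38 interferon-induced genes tested in NK cells, with the standard error as bars; the filled point is Ifit1, the only one with an adjusted p under 0.05. The points of 35 genes lie above 0, and those of Mx1, Ifi44, Ifit1 and Ifit2, with at most 1 UMI in control skins, depend on the prior count of the fit.

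Promoters of 3 interferon-induced genes that rose are shown for the interferon response motif that they have in common. Interferon-stimulated response elements, bound by STAT and IRF factors, hold GAAA, any 2 bases and GAAA again, a motif searched for on both strands from 250 bases before to 50 bases after the start site (RefSeq, GRCm38.p6). Each sequence is on the gene's strand, with the match in capitals. Ifit1 (chr19:34640639-34640938, plus strand) has 2 matches, the first at position -104 from the start site, Cxcl10 (chr5:92348840-92349139, minus strand) has 1 at position -213, and Ifih1 (chr2:62646206-62646505, minus strand) has 1 at position 33.
Ifit1: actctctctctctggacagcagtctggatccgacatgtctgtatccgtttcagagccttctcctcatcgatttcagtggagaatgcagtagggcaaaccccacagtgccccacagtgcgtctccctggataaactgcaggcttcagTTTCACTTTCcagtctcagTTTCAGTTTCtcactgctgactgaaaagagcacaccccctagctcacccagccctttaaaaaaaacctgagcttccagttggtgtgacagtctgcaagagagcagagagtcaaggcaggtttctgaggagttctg
Cxcl10: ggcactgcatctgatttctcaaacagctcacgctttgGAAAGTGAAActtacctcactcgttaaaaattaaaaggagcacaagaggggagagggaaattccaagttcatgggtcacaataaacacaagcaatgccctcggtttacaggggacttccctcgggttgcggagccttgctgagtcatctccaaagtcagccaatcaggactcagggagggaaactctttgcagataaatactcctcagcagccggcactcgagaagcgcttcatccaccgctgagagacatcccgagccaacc
Ifih1: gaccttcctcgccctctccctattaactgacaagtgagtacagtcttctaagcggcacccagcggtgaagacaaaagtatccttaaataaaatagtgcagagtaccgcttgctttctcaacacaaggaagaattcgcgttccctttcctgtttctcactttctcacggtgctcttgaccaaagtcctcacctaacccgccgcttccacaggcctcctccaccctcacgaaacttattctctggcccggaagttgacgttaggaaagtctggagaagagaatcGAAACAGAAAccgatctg
Spp1 was the fourth gene with a match among the 13 genes that rose and had a promoter in the table (30.8%), and Oasl1 had none in this window. Of the 34 genes of the interferon list with a promoter 61.8% held the motif, against 4.32% of 4626 genes tested in NK cells and 3.99% of all 27025 genes. Over windows, the share was 3.44% of 32851. A match describes the sequence and does not show that a factor binds there.

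A further 4 genes were among the largest rises. Spp1 (chr5:104435118-104441050) codes for osteopontin, a secreted matrix and cytokine protein, and was at 2.25, 13.7, 493 and 228 CPM (log2 fold change 5.56 ± 0.65, adjusted p = 0.0372). Its 381 and 116 tumor UMIs lay in 19 and 11 NK cells, with 121 and 51 in the top cell. Spp1 was in 0, 3.57, 20 and 23.8% of thinned NK cells and in 20.7, 22.2, 12.7 and 27.2% of macrophages, so macrophages of control skins had it where NK cells of the same skins hardly did. Plac8 (chr5:100553725-100572245), a cysteine-rich protein of leukocytes, was at 60.8, 82.1, 429.8 and 360.0 CPM and rose 5.57-fold (adjusted p = 0.0257). It was in 11.4, 17.9, 37.1 and 23.8% of thinned NK cells, in 6.43, 7.64, 24.7 and 25% of macrophages and in 0.769, 3.2, 33.9 and 19% of T cells, so it was higher in tumors in those cells too. Scfd2, of vesicle transport, and the zinc transporter gene Tmem163 rose by log2 fold changes of 2.82 and 2.62.

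Of 17 tested genes of circulating and mature NK cells, 1 rose and 1 fell by edgeR, the latter S100a4, and in 8 both tumors were above and in 5 below both control skins (47.1 and 29.4%, against 23.1 and 21.5% of all tested genes). Klf2, the factor that keeps lymphocytes in circulation, was at 155, 216, 364 and 372 CPM (adjusted p = 0.132). S100a6 and Emb, the members with the most UMIs, were at 2134, 1273, 375 and 1458 CPM and at 1299, 1462, 724 and 698 CPM, with adjusted p-values of 0.561 and 0.11. Ccr2 and Itga4, of entry into tissue, differed by log2 fold changes of -0.39 and 0.38.

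Genes of stress and digestion moved with the groups in part. Jun, a component of the AP-1 factor, was at 171, 164, 511 and 868 CPM and rose 4.09-fold (log2 fold change 2.03 ± 0.30, adjusted p = 0.0421). It was the only gene called by edgeR of 20 in the list of dissociation and immediate early genes, whose median log2 fold change was 0.07. The heat shock genes Hspa1a (961, 282, 3147 and 1605 CPM) and Hsp90aa1 (1783, 761, 4699 and 2705 CPM) were above both control skins in both tumors with adjusted p-values of 0.191 and 0.186. In cells with an Eomes UMI, 4 heat shock genes of the list passed, with log2 fold changes of 2.30 for Hsp90aa1, 3.62 for Hspa1a, 3.80 for Hspa1b and 2.60 for Hsph1 (adjusted p from 0.0137 to 0.0275 by edgeR). With the replicate block over all NK cells, their adjusted p was 0.0196. Junb, another AP-1 component, was lower in both tumors (1857, 1990.0, 862 and 929 CPM, adjusted p = 0.0836 by edgeR) and was called by DESeq2. Whether digestion of skin and of tumor differed in this respect was not tested.

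In the remaining lists, edgeR called single genes or none. Among 27 lineage transcription factors, Rora, a nuclear receptor of innate lymphoid cells, was at 1008, 788, 334 and 327 CPM and fell 2.72-fold (adjusted p = 0.045), and the others did not pass, among them Zeb1 (1499, 1875, 1009.7 and 938 CPM) and Runx3 (702, 739, 742 and 637 CPM). Of 10 tested cytokines and chemokines Areg fell by edgeR, and DESeq2 called Areg and Xcl1 lower. The chemokine Xcl1, which attracts cross-presenting dendritic cells, was at 5357, 2625, 1907 and 1464 CPM (adjusted p = 0.186), and Ccl5, which attracts T cells and monocytes, at 2557, 1377, 2673 and 4009 CPM (adjusted p = 0.379). Ifng, the interferon of NK cells, was at 232, 109, 370.2 and 268 CPM (adjusted p = 0.316). By edgeR's test none of 16 NK identity genes, 23 cytokine receptors and their signal transducers, 7 chemokine receptors, 11 checkpoint genes and 18 glycolysis and hypoxia genes passed. At an unadjusted p under 0.05, 5, 3, 0, 1 and 2 of them were higher and 2, 4, 3, 4 and 3 lower (7.44 and 6.68% of all tested genes), and DESeq2 called 2, 2, 0, 1 and 0. Their median log2 fold changes were 0.02, -0.24, -0.39, -0.73 and -0.22. Il2ra, the high affinity interleukin-2 receptor chain, was at 279, 137, 11.7 and 41.3 CPM (adjusted p = 0.0726 by edgeR, 0.000147 by DESeq2, 0.0219 with a gate of at least 3 NK UMIs and no CD3 UMI, and 0.019 with an Eomes UMI required), and Tgfbr2, a TGF-β receptor, at 333, 369.5, 199 and 157 CPM (adjusted p = 0.119).

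The NK gate was not uniform, and its makeup differed between libraries. An Eomes UMI was found in 19 of 37 (51.4%), 21 of 28 (75.0%), 76 of 91 (83.5%) and 48 of 57 (84.2%) cells, although Eomes itself chose cells and so these shares are a description. Cells without an Eomes UMI, at 18, 7, 15 and 9, were taken in through Ncr1 and Klrb1c. For some genes, levels as plain CPM of the cells summed differed between cells without and with Eomes. Gzmc was at 7023, 3842, 1299 and 805 plain CPM in cells without Eomes and at 4.52, 237, 648 and 58.5 with it, and 1788 of the 1789 Gzmc UMIs of control 1 were in cells without Eomes. S100a4 was at 2808, 1418, 289 and 219 plain CPM without Eomes and at 429, 462, 92.5 and 135 with it. Rora was at 1355, 1473, 881 and 512 plain CPM without Eomes and at 465, 462, 205 and 295 with it.

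In control skins, Gzma and Klra4 were higher in the cells with Eomes, unlike Gzmc. Gzma was at 2028 and 713 plain CPM in control cells with Eomes and at 329.9 and 0 in those without, whereas in tumors it was at 3002 and 3354 with and 1345 and 3746 without. Klra4 was at 334 and 240.2 plain CPM in control cells with Eomes and at 7.86 and 0 in those without, against 661, 515, 311 and 424 in tumor cells with and without Eomes. Areg had 131 of its 132 UMIs of control 1 in cells without Eomes, and 9 of 55 in control 2, so the control libraries differed. Itgae was at 63.2, 142, 0 and 4.50 plain CPM with Eomes and at 271, 137, 30.4 and 0 without, so it was lower in tumors in both kinds of cells.

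Restricting the test to cells with an Eomes UMI gave 18 genes at an adjusted p under 0.05, of which 8 were among the 34, namely Itgae, Jun, Nebl, Oasl1, Pik3r6, Plac8, S100a4 and Spp1. The heat shock genes above were 4 of the other 10. Of the 34, 29 were tested there, and Areg, Ccdc184, Cd101, Ifit1 and Meis1 were not. Klra4, Klra8, Gpr183 and Tnfsf10 did not pass in cells with Eomes. A further restriction, added after the data were seen, kept only cells that had no UMI of CD3 genes, Trdc, Trac and Tcrg-C1. There 12 genes passed, of which 9 were among the 34, including Itgae, Areg, Klra4, Pik3r6, S100a4 and Spp1. All 34 were tested, and Ifit1, Oasl1, Cxcl10, Ifih1, Klra8, Gpr183 and Tnfsf10 were among those that did not pass.

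**Figure D4:**
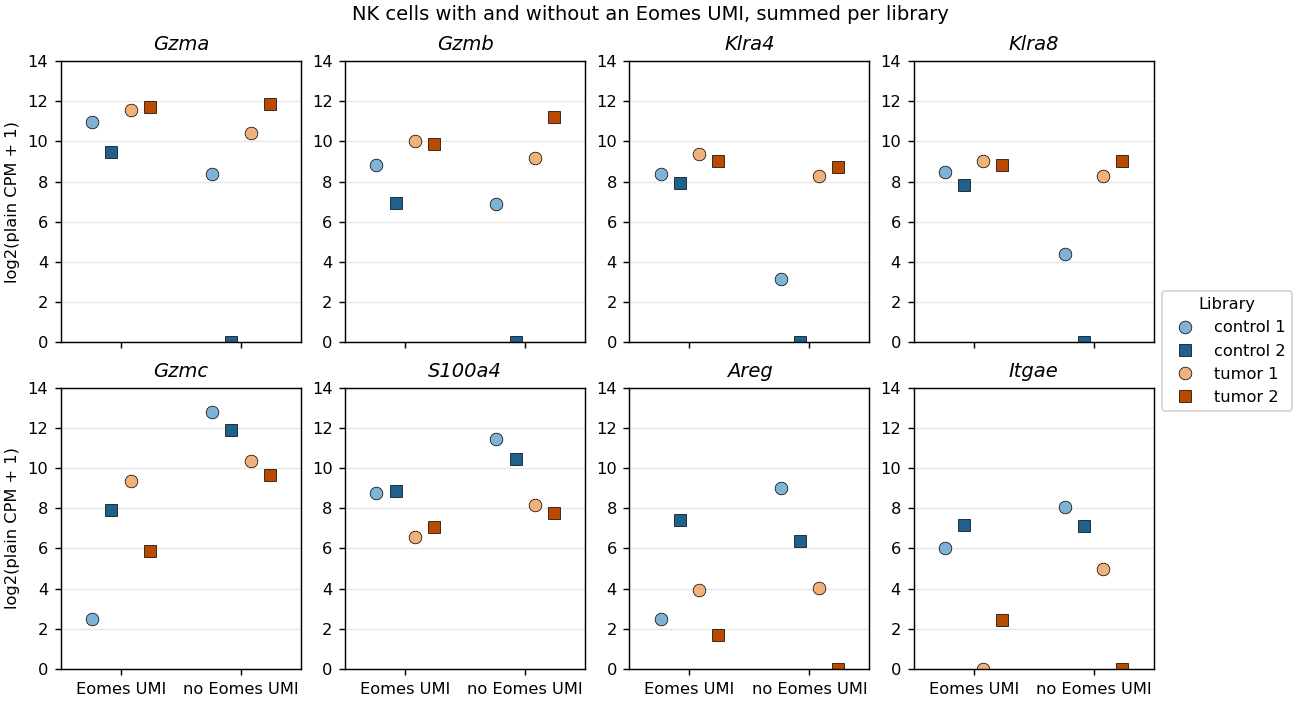
Levels of 8 genes in NK cells with and without an Eomes UMI, as log2(plain CPM + 1) of the cells summed in each library; each point is 1 library, in the order control 1, control 2, tumor 1 and tumor 2 from left to right. Gzma, Gzmb, Klra4 and Klra8 of control skins are lower in cells without Eomes, and Gzmc and S100a4 are higher there in all 4 libraries.

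Whether the change in NK cells was that of lymphocytes in general was asked against α/β T cells of the same libraries. These numbered 285, 135, 346 and 184 cells, by a gate with minima of 3 CD3 UMIs and 2 UMIs of T cell receptor genes. The gate also asked for no UMI of Ncr1, Klrb1c and Eomes and at most 1 each of Trdc and Csf1r. For Cd207, Top2a and Mki67 its limits were those of the NK gate. T cells with UMIs of the NK gate genes and dividing T cells were thus not in this comparison. Of these cells, 204, 87, 292 and 160 had a Trac UMI and none of Trdc, Trdv4 and Tcrg-C1, and are called Trac+ T cells here. In the T cells, γδ T cell and DETC markers summed to 125, 189, 35.6 and 20.9 plain CPM. Of 5 such markers tested, 3 fell in tumors, against 501 of all 8795 genes tested in T cells. How far γδ T cells in the gate add to the falls in T cells given below was not tested in T cells alone. The difference between NK and T cells was also fitted with Trac+ T cells only. Of the genes flagged for this difference at the end, 9 kept a similar size there and 1 a weaker one. The difference between the NK and T cell changes was tested with the library as a block. There 25 of 8985 genes (0.278%) changed more upward in NK cells and 42 (0.467%) more downward. In T cells alone, 535 of 8795 genes (6.08%) rose in tumors, so far more was called there than in the fewer NK cells. Levels in this comparison are CPM with TMM scaling over both kinds of cells.

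Of 16 tested residency genes, 5 changed more downward in NK cells than in T cells (Gpr183, Itgae, Tnfsf10, Ikzf2 and Ltb) and none more upward. Gpr183 was at 267, 239, 57.4 and 52.5 CPM in NK cells and at 199, 192, 157 and 216 CPM in T cells, a difference of log2 fold changes of -2.09 ± 0.29 (adjusted p = 0.0209, edgeR). Itgae fell in both, in T cells from 431 and 417 to 68.2 and 81.9 CPM, and its further fall in NK cells was -2.63 ± 0.46 on the log2 scale (adjusted p = 0.041). Ikzf2 went from 931 and 1023 to 1676 and 1369 CPM in T cells while in NK cells both tumors lay below both control skins without passing the test between groups (adjusted p = 0.253). The difference was -2.11 ± 0.38 (adjusted p = 0.0452). Klrc1 likewise was at 70.6, 96.6, 135 and 123 CPM in T cells (difference -2.05 ± 0.29, adjusted p = 0.0223).

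Gzmb, Itga2 and 3 Ly49 genes differed upward, with no such shift over the lists of cytotoxic genes and other NK receptors. Of 20 tested cytotoxic genes 1 differed upward (Gzmb) and 1 downward (Tnfsf10), and of 24 other NK receptors none upward and 1 downward (Klrc1), with median differences of -0.21 and -0.15 on the log2 scale. Gzmb was at 547, 413, 278 and 327 CPM in T cells and at 287, 86.8, 1001 and 1097 CPM in NK cells, a difference of 3.26 ± 0.35 (adjusted p = 0.0076). Itga2 was at 47.3, 16.8, 9.79 and 9.36 CPM in T cells and at 57.9, 55.2, 138 and 195 CPM in NK cells (difference 3.22 ± 0.49, adjusted p = 0.031). Of 7 tested Ly49 genes, Klra1, Klra8 and Klra9 differed upward. The size for Klra8 depends on the prior count of the fit, since its T cell UMIs were few in control skins and 0 in tumors. Klra1 was at 70.2, 37.5, 12.8 and 17.0 CPM in T cells, a difference of 3.20 ± 0.50 (adjusted p = 0.031).

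The other genes with the smallest adjusted p were a mixed group. Areg was at 162, 157, 266 and 260.4 CPM in T cells and 294, 145, 15 and 1.88 CPM in NK cells (difference -5.22 ± 0.56, adjusted p = 0.0076). Cd83, a surface protein of activated cells, was at 238, 245, 42.4 and 90.0 CPM in NK cells and at 70.2, 76.7, 98.9 and 216 CPM in T cells (difference -2.96 ± 0.28). Cd7, a receptor shared by T and NK cells, and Abcb1b, a drug efflux pump, stayed at 66.8, 78.9, 122 and 71.3 CPM and at 187, 132, 225 and 133 CPM in NK cells, and fell in T cells by log2 fold changes of -3.53 and -2.25. Calca, a neuropeptide precursor, fell in T cells from 107 and 66.3 to 8.78 and 7.61 CPM and was at 8.90, 0, 21.2 and 37.5 CPM in NK cells. Igsf5, a junction protein, was at 34.2, 53.5, 0 and 0 CPM in T cells and 13.4, 5.26, 20 and 26.3 CPM in NK cells. The control levels of Serpine2 and S100a9 in NK cells rested on 1 cell of control 2 each, with 59 of 61 and 319 of 319 UMIs.

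No interferon-induced gene was called different between NK and T cells. Of 44 tested in this comparison none passed edgeR's test with TMM or RLE factors, 1 was higher and 11 lower in NK cells at an unadjusted p under 0.05 (5.68 and 5.09% of all tested genes), while 31 of 44 rose in T cells (6.08% of all tested genes did so) and 1 of 38 in NK cells. The median log2 fold change of the list was 1.97 over 44 genes in T cells and 1.01 over 38 genes in NK cells, and the median difference over the 44 was -0.43. That no difference was called at this depth does not show that the changes were alike. Ifit1 differed by 2.37 ± 1.28 (adjusted p = 0.552) and Cxcl10 by 1.35 ± 0.37 (adjusted p = 0.196).

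**Figure D5:**
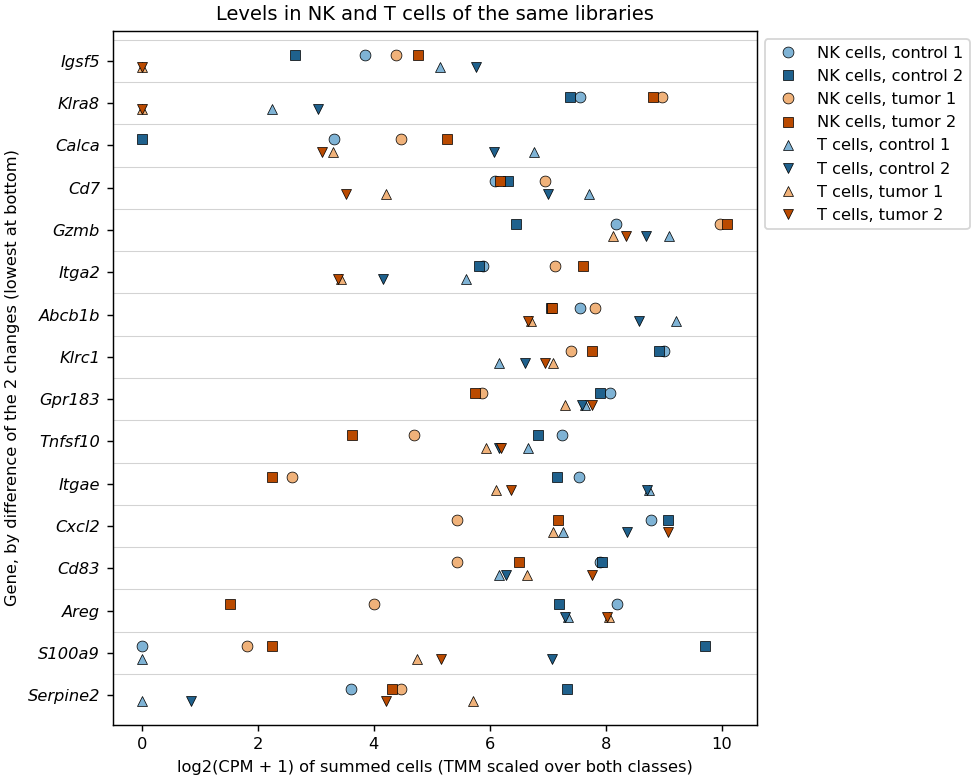
Levels of 16 genes in NK cells (circles and squares) and α/β T cells (triangles) of the same libraries, as log2(CPM + 1) of the summed cells, ordered by the difference of their changes. For Gzmb and Itga2 the tumor points of NK cells lie right of their control points and those of T cells left of them, and for Areg the reverse holds.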

How the data were processed

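CD45+ cells of 2 control skins and 2 skin tumors were profiled in 1 droplet library each. The authors aligned reads to mm10 with Cell Ranger (7.1.0 in the labels, 7.0.1 in the file headers) and deposited each library's UMI counts by gene for the barcodes called as cells, before the study's further cell filters. Of 31053 gene identifiers, 31011 are in the GENCODE annotation of GRCm38 used for coordinates. Members and gene lists were chosen with earlier results of these data known.

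For each library, UMIs of the gated cells were summed, and the sums were tested in edgeR 4.0.16 (TMM, filterByExpr, quasi-likelihood, adjusted p under 0.05, R 4.3.3). The 11 gate genes were left out of every count. The T cell comparison used the interaction of group and cell class with the library as a block. Named were the 10 largest called changes in each direction with at least 20 UMIs, up to 6 genes per list, the study's NK genes and, against T cells, the 5 smallest adjusted p each way. Klf2, Klra2, Ltb, Ifit2, Ifi44, Mx1, Il2ra, Tgfbr2 and Hsph1 were named outside this rule, after their values were seen. The study tested single cells, which are not replicates. No source says whether replicate numbers pair the samples. No doublets were removed beyond the gate; Scrublet scores (scanpy 1.11.5) and DESeq2 1.42.0 served as alternatives. On simulated data, 82.5% of 200 genes given a log2 change of 2 were recovered for NK cells (17 false calls, 5905 genes), and 59% for the difference from T cells (19 false calls, 8995 genes). Sequences are from RefSeq (GRCm38.p6). Intervals cover counting error only. A few genes and 1 allele are not reported here; counts over lists include those genes, and the plots leave them out.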

Additional observations from a re-analysis of the deposited data

Results flagged for a closer look

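For 10 genes the change in NK cells differed from that in α/β T cells of the same libraries by edgeR's interaction test, with adjusted p-values from 0.00705 to 0.0101. The tumor change in NK cells minus that in T cells (log2) was 3.26 for Gzmb, 3.97 for Cd7, 2.40 for Abcb1b, 5.93 for Calca and 10.04 for Igsf5. The last rests on 0 UMIs in T cells of tumors and depends on the prior count of the fit. It was -5.22 for Areg, -2.96 for Cd83, -2.91 for Cxcl2, -5.88 for S100a9 and -8.17 for Serpine2. In control 2, 182 of 204 Cxcl2, 319 of 319 S100a9 and 59 of 61 Serpine2 UMIs of NK cells were in 1 cell each.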

How the results depend on the processing

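The count of 34 genes in NK cells stayed within 1.5 times under RLE factors (33) and thinning (24, of which 19 were among the 34). The count also stayed so without high Scrublet scores (49), without cells with myeloid UMIs (47) and with the study's further cell filters (34). It was 74 by DESeq2 (28 higher, 46 lower), 486 without a filter on low counts, 22 with the strict gate (at least 3 NK UMIs, no CD3 UMI), 18 with an Eomes UMI required, and 12 with cells lacking T cell receptor and CD3 UMIs, a choice made after seeing the data. Leaving out 1 library gave 7 to 159. With the replicate block the count was 48 (22 higher, 26 lower), with 31 of the 34 among them; deviations of same-numbered libraries correlated at r = 0.21 across genes, and the numbers are not stated to pair the samples. The count of 67 genes that differed from T cells was 77 with RLE factors, 84 with Eomes required, 69 with Trac+ T cells, 328 without the filter, 17 without the library as a block, and 33 to 113 with 1 library left out. The ratio of NK shares ranged from 1.83 to 2.75 with 1 library left out and was 2.36 after thinning, 2.43 with the strict gate and 2.23 without high Scrublet scores. The log2 fold change of Inpp4b ranged from -1.5 to 0.0055 and that of Klri2 from -0.10 to 0.093 with 1 library left out, and the latter also turned sign with RLE factors (-0.00034), by DESeq2 (-0.00025) and with Eomes required (-0.21). The log2 fold change of Gzmc in NK cells, -2.46 in the main fit, turned to 1.54 with Eomes required. Against T cells, Serpine2 (1.73), S100a9 (6.55) and Cxcl2 (0.82) turned with Eomes required, which leaves out the cell with most S100a9 and Cxcl2 UMIs. With 2 libraries a group, no permutation p can fall below 0.333, and 65 control NK cells limit what low-count genes can show.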
